A study of Arabidopsis thaliana with 12 samples.

Results

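The genes described here were those named as proteins of the cytosolic ribosome in Arabidopsis thaliana seedlings. They were the protein-coding genes whose symbol began with RPL (large subunit) or RPS (small subunit), went on with a number and ended in a letter that tells the copies of one protein apart, as in RPL10A, RPL10B and RPL10C. The pattern was matched by 210 genes. Of these, 2 are named RPS4B and were left out, and 16 had a mean under 0.5 FPKM, which left 192 genes of the 32833 in the table. FPKM are fragment numbers corrected for the length of the gene and the depth of its library, so that levels can be compared between genes. The 192 genes were 104 of the large and 88 of the small subunit.

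The seedlings were of the accession Col-0, 10 days old, and grown several to a well in liquid Murashige and Skoog medium with sucrose. They were treated for 6 h in fresh medium with 600 nM isoxaben together with 10 nM PEP3, with 600 nM isoxaben, with 10 nM PEP3, or with DMSO as a mock. DMSO was present in equal amounts in all 4 groups, and each group had 3 libraries, given as biological replicates, of RNA from whole seedlings. Isoxaben blocks cellulose synthesis and is used as a herbicide. PEP3 is a plant elicitor peptide, a danger signal that PEPR receptor kinases perceive.

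The cytosolic ribosome of plants makes most proteins of the cell from a small subunit that reads the mRNA and a large subunit that forms the peptide bond. Each of its proteins is encoded by a small family of genes with nearly the same product, and the genes are among the most strongly transcribed of a growing seedling. Their promoters often carry the telo-box, letters that resemble the telomere repeat, and site II elements, which are bound by TCP transcription factors and are typical of genes used in dividing and growing cells.

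The names were checked against the descriptions. Of the 192 genes, 187 (100 large, 87 small subunit, 73 families) are called cytosolic here, because neither description nor RefSeq note named an organelle. No description had to name the cytosol. The other 5 were set apart. RPS12A (ATCG00065) lies on the plastid genome itself. RPL3A (AT2G43030), RPL3B (AT3G17465), RPL12A (AT3G27830) and RPL12C (AT3G27850) are called plastid here by their description or RefSeq note. These named a plastid or gave a subunit label that was read as plastid. Such a label was not checked for the mitochondrion, so a mitochondrial protein could be among the 5. Counts over the 192 genes include these 5, and values for the 187 are given beside them. Of the genes left out, the RPS4B at AT5G07090 is described as a 40S protein and had a mean of 361 FPKM, whereas the RPS4B at AT5G45060 is a disease resistance protein with 4.83 FPKM. Of the 16 under the threshold, 8 were listed at 0 in all 12 libraries. RPL27AB and RPS27AA were among them, and 98.3% and 100% of their length lay opposite another gene. Just under the threshold were RPL22A (0.348 FPKM), RPL18AA at AT1G29965 (0.336 FPKM) and RPS12B of the plastid genome (0.280 FPKM), and just inside it was RPS15C with 0.734 FPKM.

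The letters upstream of a few of the genes are shown because the families they belong to carry the differences described further on: RPL10, one copy of which rose after isoxaben, and RPS23, one copy of which was called in the comparison of the combined treatment with PEP3. Each line gives the 250 bases before the deposited gene start, read from the TAIR10.1 assembly of RefSeq, 5′ to 3′ on the strand of the gene. Capitals mark the telo-box letters AAACCCT and the site II letters TGGGCC or TGGGCT on either strand, with overlapping matches counted each.
RPL10A, chr1:4887864-4888113, plus strand: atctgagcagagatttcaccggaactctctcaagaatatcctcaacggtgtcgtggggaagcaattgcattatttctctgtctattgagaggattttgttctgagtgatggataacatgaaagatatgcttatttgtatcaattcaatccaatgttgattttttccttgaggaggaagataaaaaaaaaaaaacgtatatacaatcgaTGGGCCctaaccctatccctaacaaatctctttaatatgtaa
RPL10B, chr1:9321400-9321649, plus strand: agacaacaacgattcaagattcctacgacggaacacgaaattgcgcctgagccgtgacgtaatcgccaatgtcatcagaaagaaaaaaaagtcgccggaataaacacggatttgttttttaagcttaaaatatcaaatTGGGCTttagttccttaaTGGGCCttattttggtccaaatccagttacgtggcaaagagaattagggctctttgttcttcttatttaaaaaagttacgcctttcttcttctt
RPL10C, chr1:24838840-24839089, plus strand: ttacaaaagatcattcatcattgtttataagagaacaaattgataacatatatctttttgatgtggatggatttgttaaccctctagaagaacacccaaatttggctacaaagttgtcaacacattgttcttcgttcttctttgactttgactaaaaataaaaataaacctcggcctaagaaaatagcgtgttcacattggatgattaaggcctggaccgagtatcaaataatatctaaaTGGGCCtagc
RPS23A, chr3:2970372-2970621, minus strand: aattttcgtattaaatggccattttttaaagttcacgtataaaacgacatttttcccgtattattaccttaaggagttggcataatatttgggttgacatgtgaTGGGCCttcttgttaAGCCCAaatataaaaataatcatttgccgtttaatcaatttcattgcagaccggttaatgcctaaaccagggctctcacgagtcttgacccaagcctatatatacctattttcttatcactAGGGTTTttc
RPS23B, chr5:694516-694765, minus strand: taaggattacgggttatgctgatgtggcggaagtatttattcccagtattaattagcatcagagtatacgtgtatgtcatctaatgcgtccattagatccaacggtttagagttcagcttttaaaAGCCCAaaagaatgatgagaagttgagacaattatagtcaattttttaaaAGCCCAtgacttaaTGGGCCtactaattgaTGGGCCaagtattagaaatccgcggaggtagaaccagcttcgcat
The arrangement of the matches differed between the copies of a family. RPL10A and RPL10C each held 1 site II match in these bases and RPL10B held 2. The match of RPL10C began 10 bases before the gene start and that of RPL10A 42 bases before it. RPS23A held 2 site II matches and 1 telo-box match, and RPS23B held 4 site II matches. In the first 50 bases after the start, which are not shown, RPL10A had a further site II match, and RPL10C and RPS23B each had a telo-box match. Part of the shown stretch lies in the neighbouring gene upstream of RPL10A (70 bases, AT1G14315) and RPL10B (113 bases, AT1G26900). A match is a description of the letters and was not tested as a site.

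Over windows from 250 bases before to 50 bases after the start, 142 of the 187 cytosolic genes (75.9%) held site II letters, against 21.7% of 27419 protein-coding genes of the table. Of the 19523 protein-coding genes that, like the 187, had a mean of at least 0.5 FPKM, 25.1% did. The telo-box letters were found in 97 of the 187 (51.9%), against 10.0% of all protein-coding genes and 9.24% of the 19523. Both were found in 79 (42.2%, against 3.18% and 3.47%), and 27 genes held neither. The 79 genes with both had a median level of 328 FPKM, and the 27 with neither had 151 FPKM. On the log2(FPKM + 1) scale, which is used for all changes given here, the median change after isoxaben was -0.096 for genes with both and -0.095 for genes with neither, and after PEP3 it was -0.11 and -0.10.

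The cytosolic genes were expressed at a median of 304 FPKM, against 9.17 FPKM over the 20248 genes whose mean reached 0.5 FPKM, and 154 of 187 lay at 100 FPKM or above. RPL19A (884 FPKM) and RPS23B (866 FPKM) were among the genes with the highest means over the 12 libraries. The lowest were RPS15C (0.734 FPKM), RPS2B at AT1G59359 (1.56 FPKM) and the plastid RPS12A (2.33 FPKM). Copies of one protein were used very unequally. Over the 68 families with 2 or more genes the level of the highest was 1.01 to 942 times that of the lowest, with a median of 3.43 times. In RPS23, RPS23B held 99.2% of the family's FPKM in DMSO seedlings. The 3 genes named RPS2B have identical stretches (100% identity over at least 95% of the transcript), so that the split of fragments between them is uncertain. In all, 9 genes had a copy of at least 95% identity over at least 50% of the transcript.

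Depth was similar throughout: the 12 libraries held 16995775 to 22793764 fragments, recovered as whole numbers from the FPKM. The 192 genes took 5.66% to 6.48% of the fragments. Their summed level in FPKM was 57557, 60530 and 63388 in the libraries of isoxaben plus PEP3. It was 58287, 59509 and 58250 after isoxaben, 61496, 57574 and 55207 after PEP3, and 65044, 62157 and 61103 in DMSO. The isoxaben libraries therefore lay below all DMSO libraries, while the highest PEP3 library and the highest combined library lay within the DMSO range. The mean summed level of the 187 cytosolic genes differed from that of DMSO by -2.97% after the combined treatment, by -6.13% after isoxaben and by -7.10% after PEP3. Values from whole seedlings cannot tell fewer cells of a type from less RNA per cell.

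**Figure D1:**
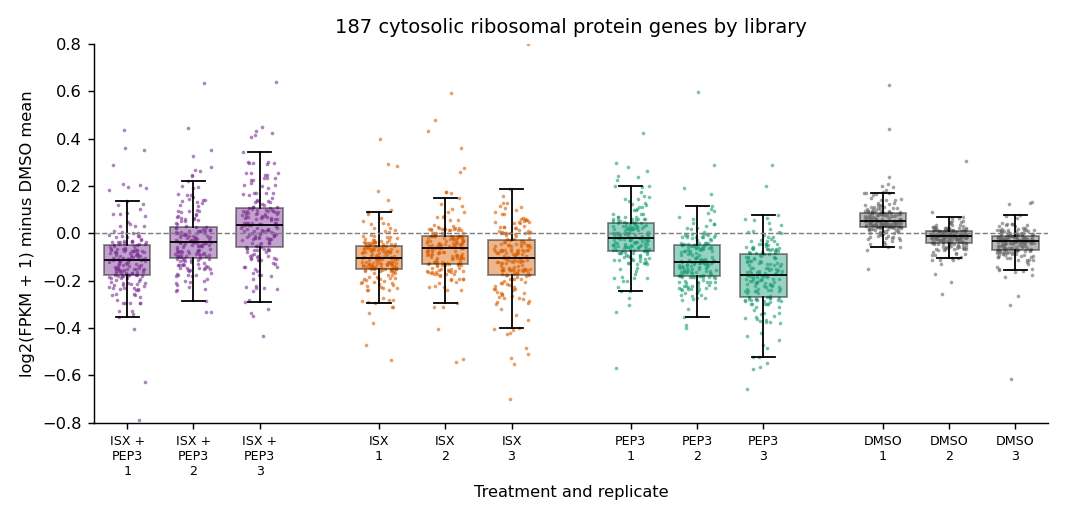
Change of the 187 cytosolic ribosomal protein genes in each library, as log2(FPKM + 1) minus the gene's mean over the DMSO libraries (y axis), by treatment and replicate (x axis). Points are genes, boxes the quartiles with the median as a line, whiskers reach at most 1.5 times the box height, and 9 points lie outside the plotted range of 0.8 in either direction; the medians run from -0.18 in PEP3 replicate 3 to 0.050 in DMSO replicate 1.

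The shift was shared by most genes and differed between libraries of one group. The median deviation of the 187 genes from their DMSO mean, on the log2(FPKM + 1) scale, was -0.11, -0.038 and 0.033 in the 3 libraries of the combined treatment. It was -0.11, -0.062 and -0.10 after isoxaben and -0.021, -0.12 and -0.18 after PEP3. In DMSO it was 0.050, -0.013 and -0.031. DMSO replicate 1 and combined replicate 3 were high, and PEP3 replicate 1 lay close to DMSO. The same deviation over all genes tested stayed between -0.0054 and 0.011 in every library.

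Isoxaben against DMSO asks what a block of cellulose synthesis does to these genes. All 20248 genes entered a limma fit of log2(FPKM + 1), and a gene was called where its p, adjusted by Benjamini-Hochberg over these genes, lay under 0.05. After isoxaben 1 of the 192 genes rose and 19 fell, so that 10.4% were called, against 32.5% of all genes tested, and 9.90% were called lower, against 15.2%. Of all genes 17.3% were called higher. The share called was thus below that of all genes. Of the 187 cytosolic genes 17 were called (9.09%), 1 higher and 16 lower. The changes were small: the median log2 change of the 192 was -0.097, against -0.0065 over all genes. Under quantile normalization these medians were -0.066 and -0.062, so that the difference from all genes was nearly gone. On the FPKM as deposited the median size without regard to sign was 0.10, against 0.19. The change was below 0 in 167 of the 192 (87.0%, against 51.1% of all genes). The isoxaben libraries did not overlap the DMSO libraries for 80 of the 192 (41.7%, against 45.2% of all genes). Of these 76 were lower, a kind that made up 22.2% of all genes.

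RPL10C (AT1G66580, chromosome 1, 24839090 to 24840806) was the gene that rose. It encodes the large subunit protein uL16, which is needed for joining the subunits. It had 413, 415 and 408 FPKM after the combined treatment and 402, 460 and 347 FPKM after isoxaben, against 302, 304 and 307 FPKM in DMSO. All 6 libraries with isoxaben lay above the 3 of DMSO. The log2 change was 0.44 (SE 0.10, limma adjusted p = 0.00499) after the combined treatment and 0.39 (SE 0.10, limma adjusted p = 0.00868) after isoxaben, and both calls held in all 31 alternative settings. After PEP3 the gene had 366, 371 and 289 FPKM, and the change of 0.16 was not called (limma adjusted p = 0.355).

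The other RPL10 copies were not called. RPL10A (AT1G14320), the copy known as a target of the receptor-like kinase NIK1 in antiviral defence, had 758, 777 and 745 FPKM after isoxaben, against 824, 794 and 786 FPKM in DMSO (log2 change -0.076, SE 0.061, limma adjusted p = 0.381). RPL10B (AT1G26910) had 30.4, 28.4 and 28.7 FPKM, against 32.1, 31.1 and 30.7 FPKM in DMSO (limma adjusted p = 0.500). RPL10A therefore made up 62.5%, 63.4% and 64.9% of the summed FPKM of the 3 copies after the combined treatment, 63.7%, 61.4% and 66.5% after isoxaben, 65.5%, 64.4% and 68.3% after PEP3, and 71.2%, 70.3% and 69.9% in DMSO. All 9 treated libraries lay below those of DMSO. No other family shifted its leading copy as far after isoxaben. The share was not tested, since the family is shown for it.

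**Figure D2:**
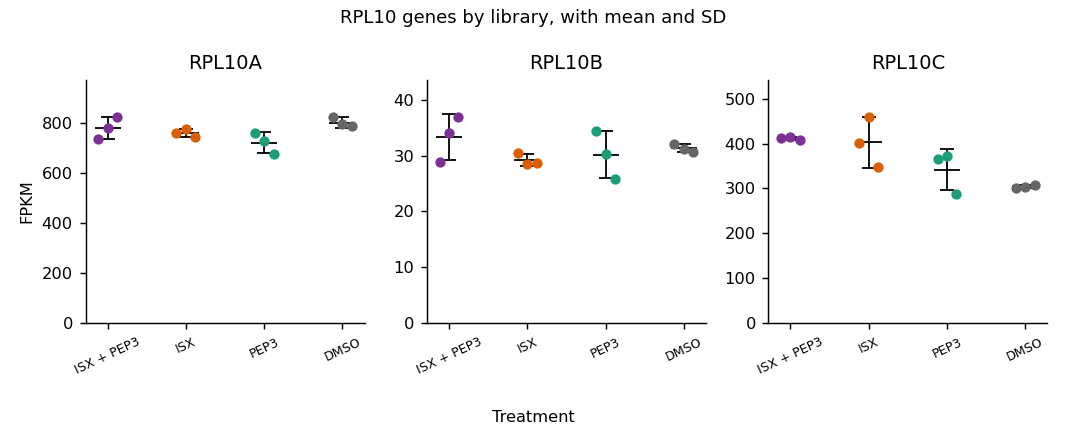
FPKM of RPL10A, RPL10B and RPL10C (y axes, each from 0) by treatment (x axis), with a point per library and the mean with its SD (n = 3) in black. RPL10C lies between 347 and 460 FPKM in the isoxaben libraries and between 302 and 307 FPKM in DMSO, while RPL10A lies between 745 and 777 FPKM after isoxaben and between 786 and 824 FPKM in DMSO.

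The 16 cytosolic genes that fell after isoxaben were 10 of the large and 6 of the small subunit. RPL37A (AT1G15250), a zinc-binding protein of the large subunit, had 31.4, 41.8 and 31.5 FPKM after isoxaben, against 47.4, 42.3 and 48.0 FPKM in DMSO. The groups did not overlap, and the log2 change was -0.40 (SE 0.10, limma adjusted p = 0.00921). RPL35AA (AT1G07070) and RPS26A (AT2G40590), whose product lines the mRNA exit channel, followed with changes of -0.39 and -0.35. RPS26A has a near-identical copy in RPS26B (95% identity). RPL21E at AT1G57860 had the smallest adjusted p, with 141, 147 and 146 FPKM after isoxaben, against 189, 185 and 175 FPKM in DMSO (log2 change -0.34, SE 0.060, limma adjusted p = 0.000687).

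In the RPL23A family, whose product sits at the exit of the peptide tunnel and contacts the signal recognition particle, one copy was called and the other was not. RPL23AB (AT3G55280) had 198, 206 and 208 FPKM after isoxaben, against 256, 239 and 227 FPKM in DMSO (log2 change -0.24, SE 0.057, limma adjusted p = 0.00547). It also fell after the combined treatment, to 196, 213 and 198 FPKM (log2 change -0.25, limma adjusted p = 0.00442), and both calls held in all 31 alternative settings. RPL23AA (AT2G39460) had 256, 244 and 273 FPKM after isoxaben, against 281, 278 and 255 FPKM in DMSO, and was not called in any of the 3 treatments. In the RPL37 family RPL37A and RPL37C (log2 change -0.19, limma adjusted p = 0.0294) fell after isoxaben. RPL37B, which holds 72.5% of the family's FPKM in DMSO, was not called (log2 change -0.051). Whether the copies differed from each other was not tested.

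The families with the widest range of log2 changes among their copies after isoxaben were RPS2, RPL10 and RPS16. In RPS2, whose product lies at the mRNA entry of the small subunit, the range of 1.26 came from the near-identical genes named RPS2B, which had 0.636 to 15.7 FPKM after isoxaben, against 0.168 to 17.6 FPKM in DMSO. No RPS2 gene was called. In RPS16, RPS16B (AT3G04230) had 40.5, 44.7 and 33.6 FPKM after isoxaben, against 32.4, 34.5 and 31.9 FPKM in DMSO, and its change of 0.25 was not called (limma adjusted p = 0.123). RPS16A and RPS16C had changes of -0.13 and -0.075 without a call.

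Genes at the highest levels were not among those called after isoxaben. Of the 37 cytosolic genes at 500 FPKM or above none was called by limma, 3 had an unadjusted p under 0.05, and voom on the recovered fragments called 2. Of the 20248 genes tested 8372 had an unadjusted p under 0.05, and voom called 6915. The median log2 change of the 37 was -0.10, and that of the 129 genes between 50 and 500 FPKM, of which 15 were called, was -0.095. The median standard error of the change was 0.070 over the 192 genes and 0.11 over all genes tested. The count of 20 rested on single libraries. When DMSO replicate 1 was left out it was 9, and when DMSO replicate 2 was left out it was 13. Leaving out isoxaben replicate 1 gave 11 and leaving out isoxaben replicate 2 gave 12, and each time 1 gene was called higher.

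PEP3 against DMSO asks what the peptide does alone. After PEP3 none of the 192 genes rose and 4 fell (2.08%, against 14.3% of all genes tested; lower, 2.08% against 6.45%; higher, 0 against 7.84%). Of the genes with a positive change 1 had an unadjusted p under 0.05, against 2904 of the 20248 genes tested. With voom, a weighted linear fit of the log of the recovered fragments, 10 of the 192 were called, all lower. Of the 20248 genes voom called 3063, so the share of the 192 was again below that of all genes. Of the 187 cytosolic genes limma called 2 (1.07%) and voom 6, all lower. The direction of the group means was nonetheless nearly uniform: the log2 change was below 0 for 177 of 192 (92.2%, against 48.6% of all genes). The median was -0.11, against 0.0069 over all genes. Under quantile normalization the medians were -0.054 and -0.015. The libraries differed: 58.3%, 89.8% and 93.6% of the 187 cytosolic genes lay below their DMSO mean in PEP3 replicates 1, 2 and 3. In the DMSO replicates these shares were 10.7%, 66.8% and 82.4%. The PEP3 libraries did not overlap those of DMSO for 63 genes (32.8%, against 32.2%), and all 63 were lower, against 15.4% of all genes that were separate and lower. All 73 families had a lower summed mean than in DMSO, with differences of -13.0% to -0.138% and a median of -7.25%, whereas after isoxaben 68 of 73 did. After the combined treatment 55 of 73 did.

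Of the 4 genes, RPS17C and RPS25E were cytosolic. RPS17C (AT3G10610), of the small subunit, had 95.02, 94.4 and 94.4 FPKM after PEP3, against 117, 111 and 106 FPKM in DMSO (log2 change -0.23, SE 0.055, limma adjusted p = 0.0134). RPS25E (AT4G39200), whose protein sits near the site where the used tRNA leaves, was the cytosolic gene called in all 3 comparisons with DMSO. It had 367, 391 and 383 FPKM after the combined treatment, 375, 390 and 375 FPKM after isoxaben and 401, 361 and 355 FPKM after PEP3, against 447, 428 and 424 FPKM in DMSO. Every treated library lay below every DMSO library, and the changes were -0.19, -0.19 and -0.22 with limma adjusted p-values of 0.0252, 0.0235 and 0.0230. These comparisons share the DMSO libraries. Each of its calls was lost in 6 or 7 of the 31 alternative settings. The count after PEP3 rested on replicate 1, the library closest to DMSO: without it 15 genes were called, all lower. Without DMSO replicate 1 it was 2, without combined replicate 1 it was 9 and without combined replicate 3 it was 7.

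**Figure D3:**
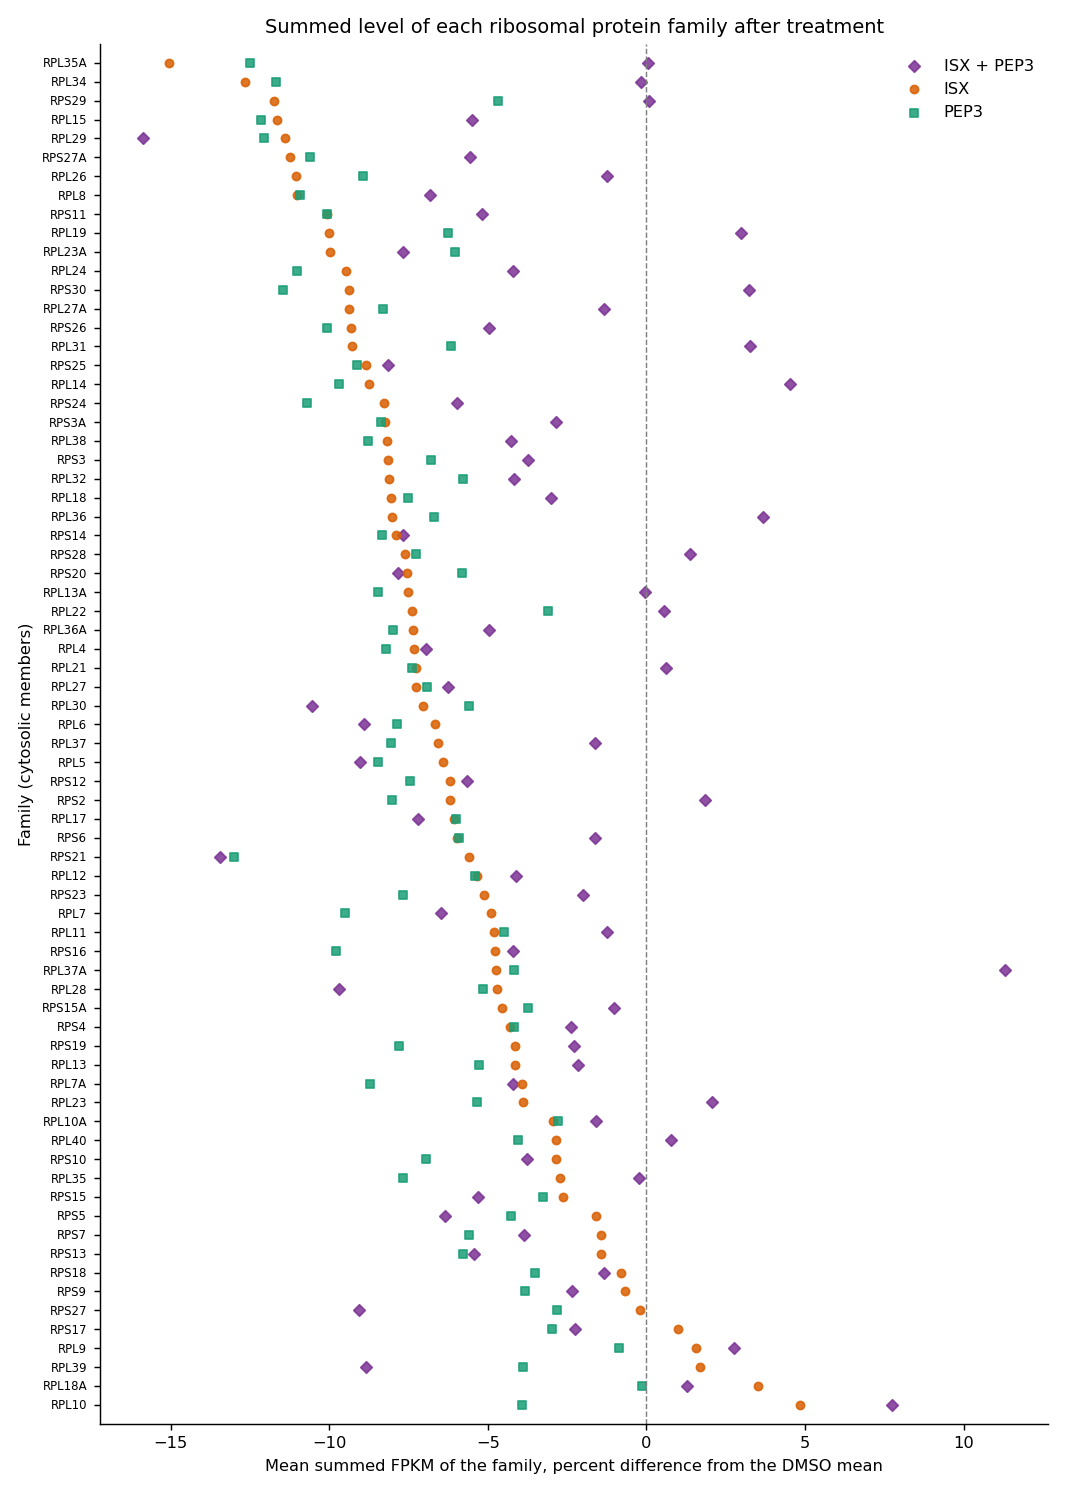
Percent difference of the mean summed FPKM of 72 of the 73 cytosolic families from its DMSO mean (x axis), with the families down the y axis in the order of the isoxaben value. Diamonds are isoxaben plus PEP3, circles isoxaben and squares PEP3; all squares lie below 0, 67 circles do, and 55 diamonds do.

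The combined treatment against DMSO called 18 of the 192 genes (9.38%, against 31.4% of all genes tested). Of these 4 rose and 14 fell (7.29% lower, against 14.4%, and 2.08% higher, against 16.9%). Under TPM scaling 3 rose and 25 fell, and under scaling to the summed fragments 3 rose and 26 fell. Of the 187 cytosolic genes 15 were called (8.02%), 4 higher and 11 lower. The median log2 change was -0.044, against -0.0016 over all genes, and 132 of 192 changes were below 0 (68.8%, against 50.3% of all genes). Under quantile normalization the order turned, with -0.013 over the 192 genes and -0.046 over all genes. The calls after isoxaben (20) and after the combined treatment (18) had 8 genes in common, which is 40% of the first list and 44.4% of the second. The 2 comparisons share the DMSO libraries. The count was 11 without DMSO replicate 1.

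Beside RPL10C, the genes that rose after the combined treatment were RPL18AA at AT1G29970, RPS9C and RPL9B at AT1G33140. RPL18AA had 13.7, 13.0 and 12.8 FPKM, against 10.2, 9.94 and 11.6 FPKM in DMSO (log2 change 0.30, SE 0.088, limma adjusted p = 0.0205). It overlaps a near-identical gene of the same name over 35.3% of its length. RPS9C (AT5G39850), whose protein is at the mRNA entry and shapes decoding, had 51.2, 52.3 and 51.6 FPKM, against 47.3, 44.2 and 42.8 FPKM in DMSO (log2 change 0.21, SE 0.059, limma adjusted p = 0.0169). Both calls were lost in 5 alternative settings. RPL9B had 318, 304 and 299 FPKM, against 278, 277 and 272 FPKM in DMSO (log2 change 0.16, limma adjusted p = 0.0355).

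RPS27B (AT3G61110), a zinc finger protein of the small subunit, fell after the combined treatment. It had 386, 342 and 319 FPKM after the combined treatment, 437, 409 and 431 FPKM after isoxaben and 375, 380 and 450 FPKM after PEP3, against 440, 439 and 414 FPKM in DMSO. The combined libraries lay below all isoxaben and DMSO libraries. The change was -0.31 against DMSO (SE 0.082, limma adjusted p = 0.0108) and -0.29 against isoxaben (SE 0.082, limma adjusted p = 0.0473), and the second call was lost in 17 of 31 alternative settings. RPL28A (AT2G19730) was the gene over 500 FPKM that was called. It had 601, 547 and 583 FPKM after the combined treatment, against 672, 667 and 662 FPKM in DMSO (log2 change -0.21, limma adjusted p = 0.00881).

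The combined treatment was also set against each single treatment, which asks what either agent adds to the other. Against isoxaben 2 genes were called (1.04%, against 7.41% of all genes tested), RPL21E at AT1G57860 higher and RPS27B lower. Of all genes 3.32% were called higher and 4.09% lower. Against PEP3 2 genes were called, both higher (1.04%, against 8.26% of all genes, with 6.02% of all genes called higher). One of them was RPS23A, the minor copy of its family, with 8.09, 7.85 and 7.95 FPKM after the combined treatment, against 4.58, 6.51 and 4.60 FPKM after PEP3 (log2 change 0.54, limma adjusted p = 0.0328). The call was lost in 8 of 30 alternative settings, voom among them (adjusted p = 0.0678), and that of RPL21E against isoxaben in 9 of 31. All combined libraries lay above all PEP3 libraries. Both counts rested on single libraries. Against isoxaben none was called without isoxaben replicate 1 or 3 or combined replicate 2 or 3, 1 without DMSO replicate 2 or PEP3 replicate 2, and 4 without combined replicate 1. Against PEP3 none was called without PEP3 replicate 3 or combined replicate 3, 1 without DMSO replicate 1, PEP3 replicate 1 or 2 or combined replicate 2, and 6 without combined replicate 1. An unadjusted p under 0.05 was held by 21 genes against isoxaben and by 20 against PEP3, 16 of them higher in each. Of the 20248 genes tested, 4424 had such a p against isoxaben (2135 higher) and 4447 against PEP3 (2527 higher). In both comparisons the share was thus smaller for the ribosomal protein genes than for all genes, also among higher genes alone.

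The interaction asks whether the change with both agents differs from the sum of the single changes on the log2 scale. It called 4 genes, all positive (2.08%, against 6.24% of all genes tested and 1.94% called positive). The value was above 0 for 171 of the 192 genes, and for 9833 of the 20248 genes tested. The median was 0.14, against -0.0093 over all genes. So the combined libraries lay above the sum of the single changes for most of these genes. Under quantile normalization the median was 0.075, against 0.022 over all genes. The count was 13 without combined replicate 1 and 10 without PEP3 replicate 1. It was 1 or 2 without DMSO replicate 1 or 2, isoxaben replicate 1, PEP3 replicate 2 or 3, or combined replicate 2 or 3.

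In the 4 genes, the mean after each single treatment lay below those of DMSO and of the combined treatment. RPL21E at AT1G57860 had 158, 181 and 176 FPKM after the combined treatment, 141, 147 and 146 FPKM after isoxaben and 165, 160 and 158 FPKM after PEP3, against 189, 185 and 175 FPKM in DMSO. Its interaction was 0.42 (SE 0.085, limma adjusted p = 0.0112) and was lost in 1 of 30 alternative settings. RPL37C (AT3G16080) had 169, 183 and 191 FPKM after the combined treatment, 159, 163 and 158 FPKM after isoxaben and 170, 161 and 151 FPKM after PEP3, against 186, 187 and 175 FPKM in DMSO (interaction 0.36, SE 0.087, limma adjusted p = 0.0270, lost in 9 of 30 settings). For both genes all isoxaben libraries and all PEP3 libraries lay below all DMSO libraries. RPS30A at AT5G56670, whose product is made fused to a ubiquitin-like peptide in animals, had 524, 619 and 611 FPKM after the combined treatment, 507, 507 and 472 FPKM after isoxaben and 542, 480 and 428 FPKM after PEP3, against 570, 546 and 555 FPKM in DMSO. Its interaction was 0.45 (SE 0.12, limma adjusted p = 0.0431), lost in 17 of 29 settings. RPS23A (AT3G09680), whose protein is part of the decoding centre, had 8.09, 7.85 and 7.95 FPKM after the combined treatment, 6.59, 5.74 and 5.18 FPKM after isoxaben and 4.58, 6.51 and 4.60 FPKM after PEP3, against 6.45, 9.23 and 6.45 FPKM in DMSO. Its single-treatment ranges overlapped those of DMSO, and its interaction of 0.82 (SE 0.20, limma adjusted p = 0.0297) was lost in 11 of 29 settings. RPS30A and RPS23A each overlap another gene on the chromosome, so the setting without such genes did not hold them.

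**Figure D4:**
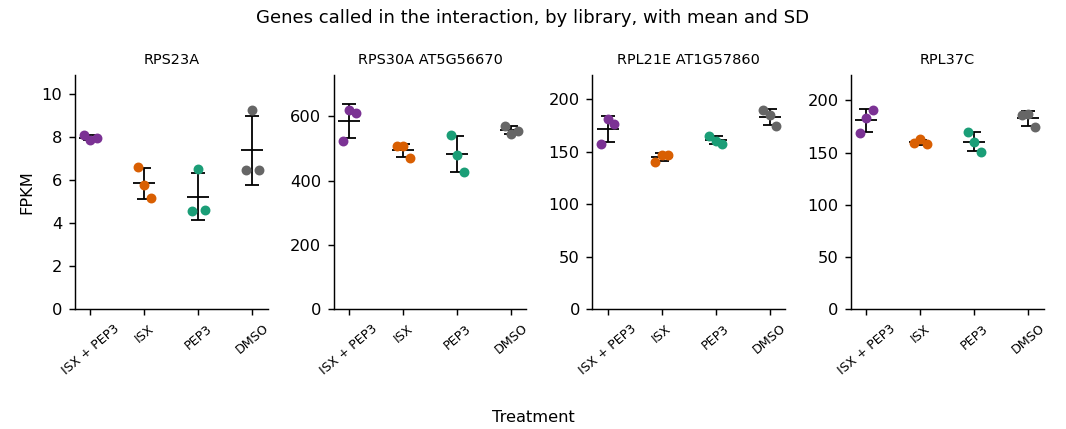
FPKM of the 4 genes called in the interaction (y axes, each from 0) by treatment (x axis), with a point per library and the mean with its SD (n = 3) in black. RPL21E at AT1G57860 lies between 158 and 181 FPKM after the combined treatment, between 141 and 147 FPKM after isoxaben, between 158 and 165 FPKM after PEP3 and between 175 and 189 FPKM in DMSO.

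A panel of copies with known roles in growth is given whatever its values. RPS6A and RPS6B encode the protein that S6 kinase phosphorylates when the TOR pathway is active. RPS6A had 637, 632 and 597 FPKM after isoxaben and 688, 646 and 581 FPKM after PEP3, against 676, 676 and 648 FPKM in DMSO, and neither copy was called. The same held for RPS5A and RPS5B, RPS13A, RPL4A and RPL4D, RPL5B, which carries the 5S rRNA, RPL10AB, RPL24A, RPL24B, known for reinitiation of translation, and RPL27AC. Their log2 changes lay between -0.17 and -0.016 after isoxaben and between -0.19 and -0.033 after PEP3. The names RPS18A, RPL5A and RPL9C were also on the panel but were not among the 192. No gene of the panel other than RPL10C and RPL23AB was called in any of the 3 comparisons with DMSO, where most of all genes tested were not called either.

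Of the 5 genes caught by the names and called plastid here, RPL12C and RPL3A fell after all 3 treatments. RPL12C (AT3G27850) had 293, 284 and 295 FPKM after the combined treatment, 369, 288 and 410 FPKM after isoxaben and 358, 356 and 375 FPKM after PEP3, against 525, 506 and 473 FPKM in DMSO. Its changes were -0.78, -0.51 and -0.46 (limma adjusted p = 4.63e-05, 0.0012 and 0.00703). RPL3A fell by 0.66, 0.45 and 0.49 on the log2 scale, and was also called in all 3. RPL12A fell after the combined treatment (log2 change -0.56) and after isoxaben (-0.35), and had -0.30 after PEP3 without a call (limma adjusted p = 0.0667). RPL3B and the plastid-encoded RPS12A, with 0 to 6.51 FPKM in a poly(A)-selected library, were not called.

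The other plastid ribosomal proteins in the table, found by their descriptions, were mostly called lower. Of 24 tested, 22 fell after the combined treatment, 21 after isoxaben and 18 after PEP3, with none higher, and their median log2 changes were -0.45, -0.30 and -0.36. Examples are RPL21 (AT1G35680; -0.66, -0.32 and -0.43) and RPS10 (AT3G13120; -0.57, -0.35 and -0.40). Of the 14 mitochondrial ribosomal proteins tested, 2, 1 and 2 fell (14.3%, 7.14% and 14.3%). Over all genes tested 14.4%, 15.2% and 6.45% were called lower and 16.9%, 17.3% and 7.84% higher, in the same order. The mitochondrial share thus lay below that of all genes after the combined treatment and isoxaben, and above it after PEP3. Markers of photosynthetic tissue moved too: of 6, 2 fell and 1 rose after the combined treatment, 5 fell after isoxaben, and 2 fell and 1 rose after PEP3. Their summed level was 19306 to 20394 FPKM after the combined treatment, 18146 to 19545 after isoxaben and 19302 to 22414 after PEP3, against 22412 to 24056 in DMSO, and no marker was at 0. Most of each sum was RBCS-1A, with means of 14703, 14398 and 15581 FPKM, against 16306 FPKM in DMSO. RBCS-1A was not called in any of the 3 comparisons. Of 6 root markers, PER72, a peroxidase of lignin formation, rose in all 3 comparisons (0.80, 0.40 and 0.67) and no other was called. Their summed level was 122 to 133 FPKM after the combined treatment, 97.3 to 126 after isoxaben and 107 to 122 after PEP3, against 88.1 to 108 in DMSO. These sums include PER72, with means of 38.9, 29.5 and 35.5 FPKM, against 21.9 FPKM in DMSO. The part of either tissue in these results was not tested.

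**Figure D5:**
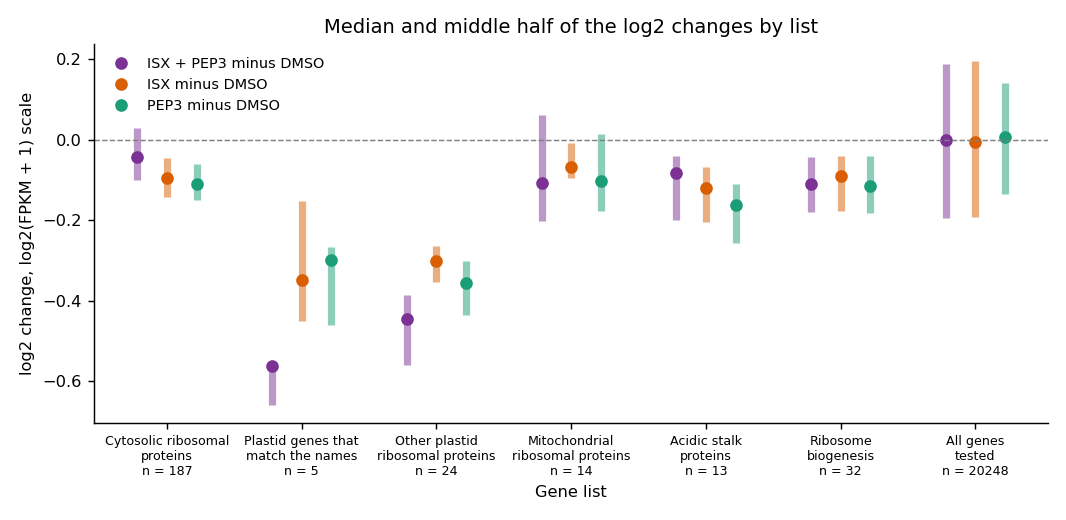
Median (points) and quartiles (bars) of the log2 changes against DMSO, on the log2(FPKM + 1) scale (y axis), for gene lists (x axis) after isoxaben plus PEP3, isoxaben and PEP3. The 187 cytosolic genes have medians of -0.042, -0.096 and -0.11, and the 24 other plastid ribosomal proteins -0.45, -0.30 and -0.36.

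Other genes of the ribosome, its assembly and its control were counted beside the share of all genes tested that was called lower, 14.4% after the combined treatment, 15.2% after isoxaben and 6.45% after PEP3. The acidic stalk proteins, which recruit elongation factors and whose genes are named RPP, had 3 of 13 genes lower after the combined treatment (23.1%) and 1 after isoxaben (7.69%). After PEP3 limma called none, 6 had an unadjusted p under 0.05, and voom called 2. Over the 20248 genes tested these counts were 2894, 5480 and 3063. RPP0B had a change of -0.21 (limma adjusted p = 0.0079) after the combined treatment and RPP0C one of -0.30 (limma adjusted p = 0.0037) after isoxaben. Of 32 ribosome biogenesis genes 9 fell (28.1%) and 1 rose after the combined treatment, 10 fell (31.2%) and 1 rose after isoxaben, and 4 fell (12.5%) after PEP3. Their medians were -0.11, -0.089 and -0.12. NOP56, a core protein of the particles that methylate rRNA, fell in all 3 (-0.22, -0.19 and -0.21). REIL2, a counterpart of yeast Rei1, which matures the large subunit in the cytosol, rose by 0.18 and 0.35 with the combined treatment and isoxaben.

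Among 21 regulators and partners of translation, 4 rose and 2 fell after the combined treatment, 2 rose and 1 fell after isoxaben, and 1 fell after PEP3. The shares called were 28.6%, 14.3% and 4.76%, against 31.4%, 32.5% and 14.3% of all genes. The gene of the S6 kinase ATPK2 (AT3G08720) rose by 1.02 with the combined treatment and 1.29 with isoxaben, and its change of 0.11 after PEP3 was not called (limma adjusted p = 0.534). NIK1 fell after the combined treatment (log2 change -0.55, limma adjusted p = 0.0024) and after isoxaben (log2 change -0.40, limma adjusted p = 0.0161). NAC082, a transcription factor of the response to ribosomal stress, rose after the combined treatment (0.27) and isoxaben (0.24). TOR, its partner RAPTOR1 and the other S6 kinase ATPK1 were not called. Of 10 genes of dividing cells, 4 fell after the combined treatment (40%, against 14.4% of all genes tested called lower). After PEP3 2 fell (20%, against 6.45%). After isoxaben limma and voom called none of them, and 2 had an unadjusted p under 0.05 (8372 of the 20248 genes tested). Their summed level was 131 to 138 FPKM after the combined treatment, 141 to 158 after isoxaben and 132 to 146 after PEP3, against 155 to 166 in DMSO, and their part in the values of the ribosomal protein genes was not tested.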

How the data were processed

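The deposited table held FPKM per gene for 12 libraries, made by the authors. Reads were aligned with HISAT2 2.0.5 to TAIR10, per the submitters' processing notes; for the counting program and its strand setting, nothing is given in the sources used here. Multiplying FPKM by gene length recovered whole fragments for 100% of the values, within 0.01 of a fragment. Gene starts and ends in the table equal those of the RefSeq annotation for 191 of the 192 genes. Depth of 16995775 to 22793764 fragments limits the precision of genes at a few FPKM.

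The 20248 genes whose mean reached 0.5 FPKM were fitted with limma 3.58.1 (R 4.3.3) on log2(FPKM + 1), so that changes of low genes are understated. All 4 groups shared 1 variance estimate with 8 residual degrees of freedom and a variance trend, and Benjamini-Hochberg adjustment was made over all genes in each of 6 comparisons. The code was tested on simulated data. Scaling, filters, pseudocounts, the variance model, a replicate block, voom on recovered fragments and single libraries were varied. Replicates were given as biological, and nothing more is stated of how they were grown apart.

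The genes named are a panel with known roles, the called genes with the most extreme changes, the highest and lowest levels, the families whose copies differed most, organellar genes and the extremes of the lists. The values of 1 family are not reported here. Others with values, such as RPS25E, RPL28A and RPL35AA, were chosen after their values were seen. The members and lists were chosen with earlier results of these data known. BLAST 2.17.0 between transcripts served to find near-identical copies. Tables and figures were made with Python 3.11.15, pandas 2.3.3, numpy 2.4.6 and matplotlib 3.10.9.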

Additional observations from a re-analysis of the deposited data

Results flagged for a closer look

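The changes with isoxaben differed between seedlings with and without PEP3, by the interaction term of the limma fit, for the 4 called genes. These were 2.08% of the 192, against 6.24% of all genes tested. RPL37C had an interaction of 0.36 on the log2 scale (limma adjusted p = 0.0270). RPL21E at AT1G57860 had one of 0.42 (limma adjusted p = 0.0112). RPS30A at AT5G56670 had one of 0.45 (limma adjusted p = 0.0431). RPS23A had one of 0.82 (limma adjusted p = 0.0297). In this order, the calls were lost in 9 of 30, 1 of 30, 17 of 29 and 11 of 29 alternative settings. Leaving out single libraries gave 1 to 13 called genes.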

How the results depend on the processing

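The median log2 change of the 192 genes kept its sign in all 185 recomputed values over the 6 comparisons, but the median over all genes moved too: under quantile normalization the 192 and all genes had -0.066 and -0.062 after isoxaben, and -0.013 and -0.046 after the combined treatment. The median of the 192 moved by more than the spread between libraries (0.058) under quantile normalization, to -0.054 after PEP3 and to 0.075 for the interaction. The cause was not tested. Counts of called genes depended more on the settings, and 61 of 185 moved by over 1.5 times. Adjusted p under 0.01 left 9 after isoxaben, 2 after PEP3, 8 after the combined treatment and 0 in the other 3 comparisons, by construction. Without a variance trend the counts were 12 after isoxaben, 0 for the combined treatment against isoxaben, 1 against PEP3 and 2 for the interaction. The PEP3 count of 4 became 7 with a mean of at least 2 FPKM or median-of-ratios scaling, 8 with length and GC trends removed, 10 with voom, and 2 without the plastid genes. TPM scaling gave 28 for the combined treatment. Scaling to the summed fragments gave 31 after isoxaben, 29 for the combined treatment and 1 for the combined treatment against isoxaben. That last count was also 1 with a pseudocount of 0.1, without a filter, with the length trend removed, or with the compared groups alone. Without a filter there were 0 against PEP3 and 2 for the interaction, and without genes that overlap another gene likewise 0 and 2. The scaling to summed fragments, the length trend alone and the removal of overlapping genes or near-identical copies were chosen after seeing the data.

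Leaving out each library in turn gave 9 to 23 called genes after isoxaben, 2 to 15 after PEP3 and 11 to 21 after the combined treatment. The combined treatment had 0 to 4 against isoxaben and 0 to 6 against PEP3, and the interaction had 1 to 13. The medians ran from -0.12 to -0.068 after isoxaben, from -0.16 to -0.070 after PEP3 and from -0.078 to -0.013 after the combined treatment. They ran from 0.0076 to 0.071 for the combined treatment against isoxaben, from 0.016 to 0.096 against PEP3, and from 0.11 to 0.19 for the interaction.

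Same-numbered libraries did not deviate together over the genes as a whole (correlations over genes of -0.11 to 0.10). Whether the numbers pair the samples is not stated. These values cannot tell, since a pairing could have small effects or touch few genes. With a replicate block 17 genes were called after isoxaben, 5 after PEP3, 15 after the combined treatment, 1 in each comparison with a single treatment and 3 for the interaction. Removal of genes by protein identity was not run, since no protein sequences were used, and near-identical transcripts were removed instead. The interaction needs all 4 groups, so it has no value with the compared groups alone.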
